A study of Mus musculus with 12 samples.

Results

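Alternatively activated macrophages are the macrophage state that the cytokines IL-4 and IL-13 induce: both bind receptors that contain the IL-4 receptor alpha chain, the receptor activates the transcription factor STAT6, and STAT6 acts together with macrophage factors such as C/EBP-beta and PU.1 on genes of matrix uptake, arginine use and tissue repair. Macrophages that live long-term in connective tissue share part of this programme and add scavenger receptors of their own. In tumours, cells with these genes are commonly discussed as macrophages that tolerate tumour growth. Of the 22195 genes in the deposited files, 10 were taken by name as genes of alternative activation and resident macrophages. Arg1, Chil3 and Retnla encode an arginine-degrading enzyme and 2 secreted proteins. Mrc1, Mgl2 and Clec10a encode lectin receptors that bind mannose or galactose-type sugars. Cd163, Stab1, Folr2 and Lyve1 encode the haemoglobin scavenger receptor, the scavenger receptor stabilin-1, folate receptor beta and a hyaluronan receptor of resident macrophages and lymphatic vessels.

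The tumours were grown under the skin of C57BL/6J mice with an intact immune system from YUMM2.1, an established mouse melanoma cell line, and bulk RNA of the whole tumour was sequenced after removal of ribosomal RNA. All 4 groups carried the same tumour line and differed in the antibody given once tumours measured 20 to 50 mm3: an isotype control IgG, an antibody to the checkpoint protein B7-H3, an antibody to the T cell checkpoint receptor PD1, or both antibodies together (the combination). Each group has 3 libraries. The labels do not say that each library came from a mouse of its own, so p-values measure the spread between these libraries, which may be technical. The labels give neither the age of the mice nor the time from treatment to collection.

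The libraries stood apart by group before any macrophage gene was considered. Totals of estimated reads were highest in isotype control (15585622 to 21298142), then in anti-PD1 (8099713 to 10527704), combination (4409772 to 5014931) and anti-B7-H3 libraries (3593110 to 3937727). The 14 genes that held over 1% of any library, 10 of them predicted genes with satellite-like repeats, took 89.12% to 92.38% of isotype control reads, 68.7% to 74.24% of anti-PD1, 32.5% to 36.13% of combination and 4.9% to 5.03% of anti-B7-H3 reads. In anti-B7-H3 libraries nearly all of that share lay in Fn1, Ahnak, Eef1a1 and Col3a1, at 1.006% to 1.755% each. The largest repeat gene, Gm10800, held 0.037% to 0.087% there and 34.545% to 36.216% of isotype control reads. Chemoreceptor genes (1545 genes for smell, pheromone and bitter taste receptors, used in sensory cells) gave 0.0861 to 0.1 reads for each kilobase of their coding length in anti-B7-H3 libraries, 0.662 to 0.788 in combination, 5.18 to 5.62 in anti-PD1 and 7.09 to 8.05 in isotype control libraries. This rate, multiplied by a gene's coding length, is called its background below. Libraries of anti-B7-H3 and of the combination differed within their group by little more than counting noise. The median chi-square of a gene between 2 libraries was 0.547 to 0.561 and 0.55 to 0.577 there, against 0.455 from counting alone. It was 0.625 to 0.658 in anti-PD1 and higher, at 0.708 to 1.19, in isotype control. The mean chi-square was 1.91 to 5.63 in isotype control and 1.36 to 1.45 in anti-B7-H3. Macrophage RNA was present in every group, with reads on 15 of 15 general macrophage genes (Csf1r, Adgre1, Cd68, C1qa and others), and their summed level in CPM, library shares of reads scaled by TMM so that the bulk of genes is level between libraries, was 332 to 354 in isotype control, 473 to 491 in anti-PD1, 1300 to 1320 in combination and 2700 to 2730 in anti-B7-H3 libraries. The 7 listed melanocyte genes, pigment genes and the factor genes Sox10 and Mitf, mark the tumour cells' lineage. They summed to 25.5 to 28.8 CPM in anti-B7-H3, 44.4 to 46.8 in combination, 83.1 to 86.9 in anti-PD1 and 90.6 to 107 CPM in isotype control libraries. Sox10 gave 66.6 of the mean 101 CPM in isotype control, and Sox10 (13.9) and Mitf (12.4) gave most of the mean 26.8 CPM with anti-B7-H3. Of the 4 tested, 3 were lower with anti-B7-H3 than in isotype control at an adjusted p under 0.05. Mitf, named after its value was seen, was not, at 10.4 to 11.6 CPM in isotype control and 11.6 to 13 CPM with anti-B7-H3. The lineage factor gene Sox10, named after its value was seen, was at 12.8 to 15 CPM with anti-B7-H3 and 60.2 to 72.4 CPM in isotype control (-2.26), where its 560 reads stood against a background of 31.4, and the pigment enzyme gene Tyr had 5 and 85 reads in these groups (-6.1). Dct and Tyrp1 had 0 reads in the anti-B7-H3 libraries, which allows up to 3 reads over the group, and in isotype control their 27 and 18 reads lay below their background of 34.8 and 29.7. The part of tumour cell share in the members' changes was not tested.

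The 10 genes shared one order of groups: each was highest with anti-B7-H3, second with the combination and lowest in isotype control or anti-PD1 libraries. The group means of the 15 general macrophage genes had this order as well, so it is not particular to the 10. Cd68, for example, had means of 57.5 CPM with anti-B7-H3, 23.4 with the combination, 13.9 in isotype control and 9.83 with anti-PD1. The share of all genes with this order was not counted. Levels are given as TMM-scaled CPM. All 10 passed the low-count filter, but Retnla, Mgl2, Clec10a, Folr2 and Lyve1 did so only through other groups than isotype control, so the number of them above isotype control is a description. In bulk tumour RNA, fewer cells of a type and less RNA per cell cannot be told apart.

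Mrc1, the mannose receptor CD206 (GRCm38 chromosome 2, 14229392 to 14332057, plus strand), stood at 73, 58 and 59.4 CPM in the isotype control libraries 1 to 3. The anti-PD1 libraries held 87.1, 88.3 and 95.6 CPM, those of the combination 329, 335 and 328 CPM, and those of anti-B7-H3 680, 680 and 677 CPM. The 4 groups did not overlap. The log2 fold change against isotype control, from edgeR's quasi-likelihood test with Benjamini-Hochberg adjustment over 13478 genes, was 3.41 ± 0.0628 (SE, n = 3 per group) for anti-B7-H3 (adjusted p = 8.13e-55) and 2.37 ± 0.0646 for the combination (adjusted p = 1.08e-43).

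Arg1, arginase 1, which splits arginine into ornithine and urea and so competes with nitric oxide synthesis (chromosome 10, 24915221 to 24927484, minus strand), had 50.7, 54.4 and 53.9 CPM in isotype control and 56.5, 57.4 and 59.9 CPM in anti-PD1 libraries. Its level was 499, 513 and 505 CPM in anti-B7-H3 and 217, 220 and 221 CPM in combination libraries. The anti-B7-H3 and combination libraries lay above all others, and the lowest of them was the combination's 217 CPM. The log2 fold change was 3.26 ± 0.0608 for anti-B7-H3 (adjusted p = 1.57e-54) and 2.05 ± 0.064 for the combination (adjusted p = 3.97e-40) against isotype control.

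Chil3, the chitinase-like protein Ym1 (chromosome 3, 106147554 to 106167564, minus strand), had the widest range of the 10. The isotype control libraries held 30.9, 38.8 and 33.4 CPM, and the anti-PD1 libraries 31, 28.4 and 28.5 CPM. The anti-B7-H3 libraries held 637, 658 and 642 CPM, whereas the combination libraries held 79.4, 81.8 and 80.6 CPM. Isotype control and anti-PD1 overlapped and the other groups stood clear of each other. Chil3 rose by 4.24 ± 0.0668 on the log2 scale with anti-B7-H3 (adjusted p = 6.89e-59) and by 1.24 ± 0.0799 with the combination (adjusted p = 1.95e-22). Its coding sequence is 95.3% identical to that of the neighbouring gene family member Chil4, with 35.8% of its 31-base words in common, so reads could be split between them. Chil4 had 42 reads over the 3 anti-B7-H3 libraries against 24533 for Chil3, and 4 over those of the combination against 2669. In isotype control it had 28 reads against 287, and with anti-PD1 36 against 704.

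Retnla, the resistin-like protein RELM-alpha or FIZZ1 (chromosome 16, 48842551 to 48844461, plus strand), was the most variable of the secreted products in isotype control, at 13.6, 10 and 23.4 CPM. Anti-PD1 libraries had 19.6, 14.6 and 18.4 CPM, combination libraries 24.9, 27.5 and 28.5 CPM, and anti-B7-H3 libraries 140, 154 and 140 CPM. The combination libraries lay only just above the highest isotype control library. Retnla rose by 3.2 ± 0.16 on the log2 scale with anti-B7-H3 (adjusted p = 5.96e-10) and by 0.79 ± 0.207 with the combination (adjusted p = 0.00571). The call for the combination was lost without isotype control library 1 (0.65, adjusted p = 0.0632) and with background subtracted (0.11, adjusted p = 0.695).

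Chil3 and Retnla were the members that fell furthest from anti-B7-H3 to the combination, as described below, so the bases upstream of their start sites are shown, from RefSeq's GRCm38.p6. They lie at chr3:106167565-106167814 on the minus strand and at chr16:48842359-48842550 on the plus strand, both 5′ to 3′ and outside the annotated genes. Capitals mark palindromic STAT-type matches: TTCNNNNGAA, the spacing that STAT6 is known for, and TTCNNNGAA, the spacing of other STAT proteins.
Chil3 upstream: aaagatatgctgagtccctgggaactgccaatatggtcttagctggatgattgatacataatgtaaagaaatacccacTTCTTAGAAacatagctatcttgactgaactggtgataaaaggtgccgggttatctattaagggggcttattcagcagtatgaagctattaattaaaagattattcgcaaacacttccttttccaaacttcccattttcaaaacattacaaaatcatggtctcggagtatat
Retnla upstream: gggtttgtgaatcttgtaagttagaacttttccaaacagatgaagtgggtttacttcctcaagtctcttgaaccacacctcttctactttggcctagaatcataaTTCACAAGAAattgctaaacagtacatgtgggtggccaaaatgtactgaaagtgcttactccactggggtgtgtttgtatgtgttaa

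Windows of 300 bases around RefSeq start sites were found for 7 of the 10 genes; Arg1, Clec10a and Lyve1 had none. The Retnla window held TTCACAAGAA at position -145 from the start site, and TTCNNNNGAA was in no window of the other 6 and in 6.95% of 32851 windows of all genes. The Chil3 window held TTCTTAGAA at -172, and TTCNNNGAA occurred in 8.3% of all windows. On either strand, TTNNGNAA, a loose C/EBP-type pattern, was in the windows of 6 of 7 genes and in 40.7% of all windows, and GAGGAA, a PU.1-type pattern, was in those of 4 of 7 and in 28.3% of all. These matches describe letters in these windows and were not tied to binding by any measurement here.

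Among the lectin receptors, Mgl2 (chromosome 11, 70130329 to 70137550, plus strand) had 15.8, 12.4 and 12.3 CPM in isotype control, 28, 27.1 and 28.6 CPM in anti-PD1, 72.6, 71.8 and 72.3 CPM in combination and 182, 192 and 183 CPM in anti-B7-H3 libraries. The 4 groups were separate, and Mgl2 rose by 3.77 ± 0.0882 on the log2 scale with anti-B7-H3 (adjusted p = 3.17e-48) and by 2.4 ± 0.102 with the combination (adjusted p = 3.18e-32). Its close neighbour Clec10a, the macrophage galactose-type lectin MGL1 (chromosome 11, 70156197 to 70170834, plus strand), was about as low in isotype control as its background, with 23 reads over the 3 libraries against 19.6. Clec10a stood at 2.78, 2.8 and 2.6 CPM in isotype control, 2.37, 2.26 and 2.5 CPM in anti-PD1, 9.26, 11.3 and 9.76 CPM in combination and 24.4, 24.8 and 24.9 CPM in anti-B7-H3 libraries. The coding sequences of Mgl2 and Clec10a are 90.5% identical, with 32.4% of the 31-base words of Mgl2 in both, so the division of reads between them is uncertain.

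Before background was subtracted, the scavenger and resident-type receptors rose less from isotype control to anti-B7-H3 than the other members. With it subtracted, this held for Cd163 (1.45) and Stab1 (1.64). It did not hold for Folr2 (2.68) and Lyve1 (2.87), against 2.49 for Retnla and 2.52 for Arg1. Cd163 (chromosome 6, 124304656 to 124330527, plus strand) moved from 39, 37.2 and 39.7 CPM in isotype control to 144, 141 and 139 CPM in anti-B7-H3 libraries, with 51.4, 47.2 and 51.9 CPM in anti-PD1 and 80.2, 84.7 and 77.6 CPM in combination libraries. Stab1 (chromosome 14, 31139013 to 31168641, minus strand) had 59.7, 55.2 and 61.7 CPM in isotype control, 82.5, 79.4 and 85.1 CPM in anti-PD1, 183, 188 and 185 CPM in combination and 214, 204 and 213 CPM in anti-B7-H3 libraries. Stab1 was thus the member whose combination level came nearest to its anti-B7-H3 level, although the 2 groups did not overlap. The log2 fold changes of anti-B7-H3 against isotype control were 1.87 ± 0.0723 for Cd163 (adjusted p = 6.06e-35) and 1.84 ± 0.0624 for Stab1 (adjusted p = 3e-38).

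Folr2 (chromosome 7, 101839988 to 101857194, minus strand), which marks perivascular and other resident macrophages, had 6.18, 4.4 and 4.09 CPM in isotype control and 7.23, 5.02 and 5.8 CPM in anti-PD1 libraries, which overlapped. It had 34.2, 33.6 and 36.4 CPM in anti-B7-H3 and 19.4, 17.3 and 19.4 CPM in combination libraries. Lyve1 (chromosome 7, 110850607 to 110863239, minus strand) was the lowest, at 4.33, 3.2 and 1.11 CPM in isotype control, 1.9, 2.14 and 1.71 CPM in anti-PD1, 7.78, 5.83 and 7.38 CPM in combination and 9.06, 12.2 and 11.1 CPM in anti-B7-H3 libraries. The 25 Lyve1 reads in isotype control lay close to its background of 21.4, so its fall or rise from that group rests on few reads.

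**Figure D1:**
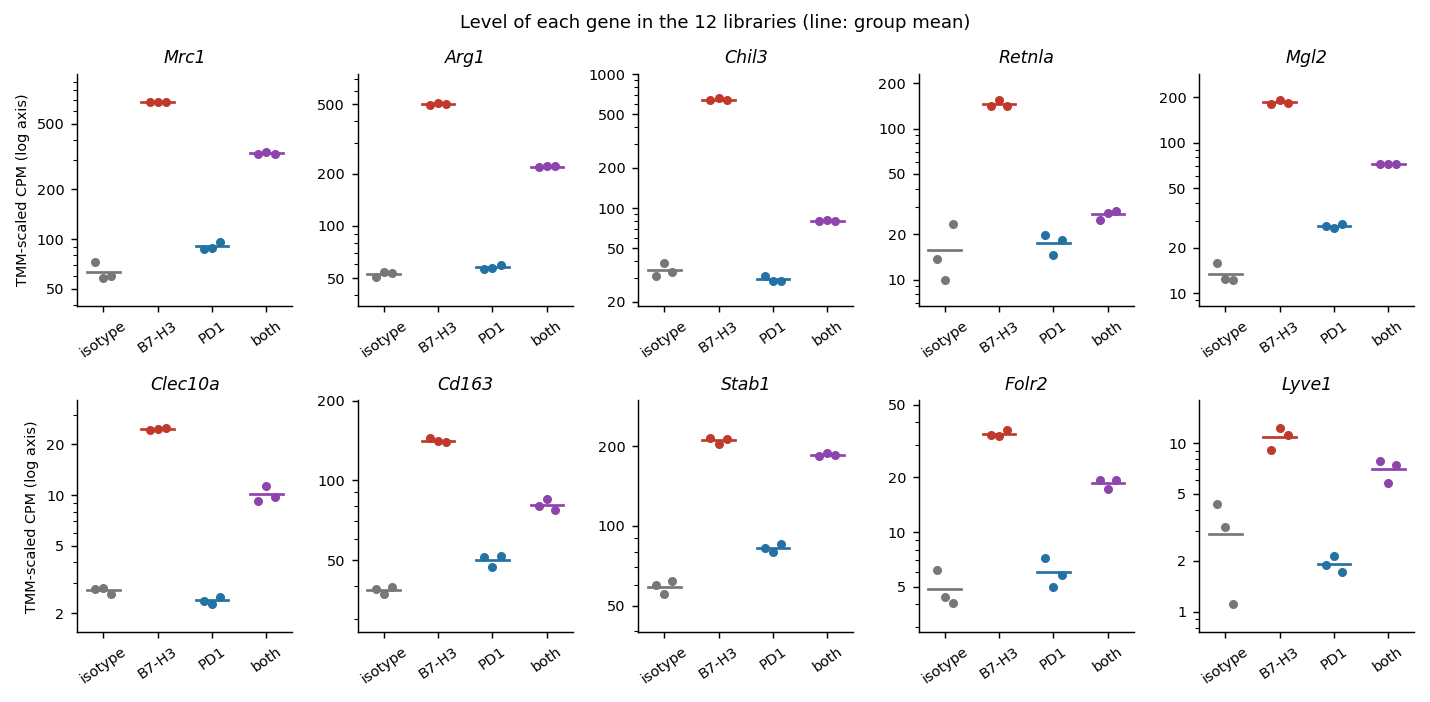
Level of each of the 10 genes in the 12 libraries, in TMM-scaled CPM on a log axis that differs between panels. Dots are libraries in the order of their replicate numbers, lines are group means (n = 3), and the anti-B7-H3 libraries are highest and the combination libraries second in each panel.

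Compared per kilobase of coding length, the genes differed in level as well as in change. In anti-B7-H3 libraries Chil3 had 540 ± 9.19 CPM per kilobase (SD, n = 3) and Arg1 520 ± 7.45. Retnla followed with 346 ± 19.3, Mgl2 with 179 ± 5.33 and Mrc1 with 155 ± 0.36 CPM per kilobase. Folr2 (48.2 ± 1.98), Cd163 (41.4 ± 0.761), the lectin receptor Clec10a (28.2 ± 0.282), Stab1 (27.3 ± 0.705) and Lyve1 (11.2 ± 1.64) were lower on this scale. The lectin receptors and the receptors of resident type thus overlapped. In combination libraries the first place passed to Arg1, at 226 ± 2.5 CPM per kilobase, ahead of Mrc1 at 75.7 ± 0.884, Mgl2 at 69.4 ± 0.4, Chil3 at 67.4 ± 0.965 and Retnla at 64.7 ± 4.51.

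Background weighed unevenly on these values. In isotype control it amounted to 4.89% of the reads of Arg1, 7.08% of Retnla, 9.34% of Chil3, 18.1% of Mrc1 and 34.7% of Stab1, and to 85.3% of Clec10a and 85.8% of Lyve1. In anti-PD1 libraries it ran from 1.13% for Arg1 to 33.5% for Lyve1, in combination libraries from 0.0285% to 0.876%, and in anti-B7-H3 libraries the highest share was 0.0658%, for Lyve1. The comparison of the combination with anti-B7-H3 was therefore the one with the least background in both arms.

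**Figure D2:**
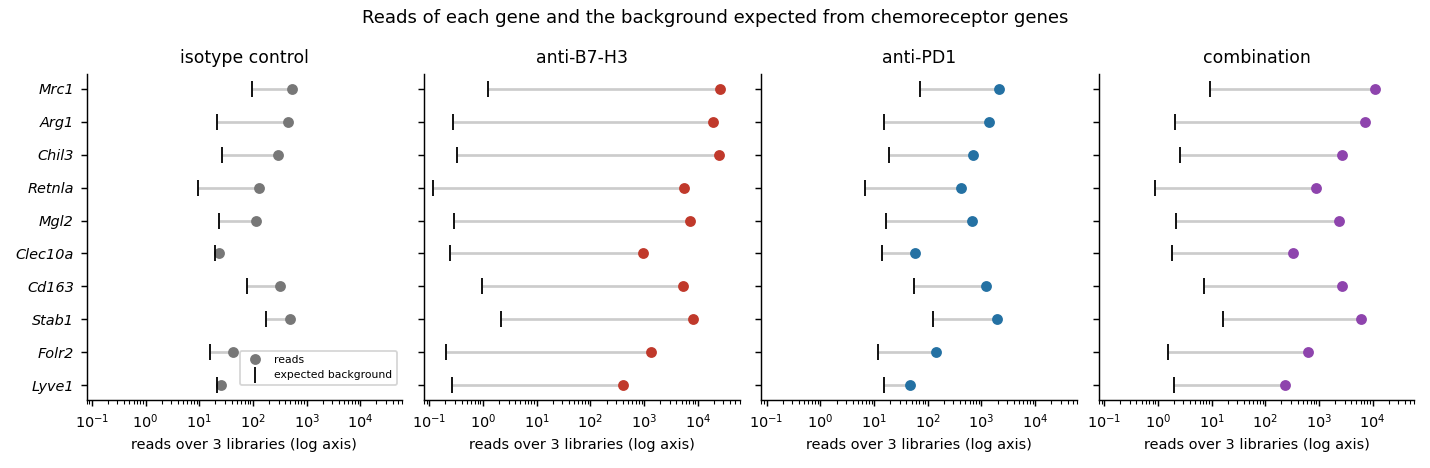
Reads of each gene summed over the 3 libraries of a group (dots) beside the background that the chemoreceptor rate gives for its coding length (bars), on a log axis. In isotype control the dots of Clec10a (23 reads) and Lyve1 (25 reads) lie next to their bars, and in anti-B7-H3 libraries dots and bars lie far apart.

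With anti-B7-H3 alone, 10 of 10 genes rose above isotype control at an adjusted p under 0.05, with a median log2 fold change of 3.19 and a range of 1.84 to 4.24, from edgeR's test. Of all 13478 genes tested, 30.8% were called higher in that comparison, with a median of -0.04, and of the 15 general macrophage genes 15 were called higher, with a median of 2.79. Arg1, the secreted products Chil3 and Retnla and the lectin receptors Mrc1, Mgl2 and Clec10a had values of 3.17 to 4.24, above that median. Cd163, Stab1 and Lyve1 had values of 1.84 to 1.87, below it. Folr2, at 2.8 ± 0.172, lay beside it. With background subtracted from every gene the values ran from 1.45 for Cd163 to 4.86 for Clec10a, and 10 of 10 were called. Lyve1 stood at 2.87 there, beside Mrc1 (2.88) and above Folr2 (2.68), Arg1 (2.52) and Retnla (2.49), so its low place did not hold. Stab1 (1.64) stayed low with Cd163. The value for Clec10a rests on 23 isotype control reads against a background of 19.6, and that for Lyve1 on 25 against 21.4.

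Anti-PD1 alone gave a smaller and mixed pattern. Against isotype control 4 of 10 genes rose, where 17.5% of all genes were called higher: Mgl2 by 1.03 ± 0.123 (adjusted p = 1.46e-10), Mrc1 by 0.5 ± 0.0724 (adjusted p = 4.84e-08), Stab1 by 0.48 ± 0.0704 (adjusted p = 5.07e-08) and Cd163 by 0.38 ± 0.0856 (adjusted p = 0.00026) on the log2 scale. The other 6 did not pass, with values of 0.13 for Arg1 (adjusted p = 0.171), -0.22 for Chil3 (adjusted p = 0.0816), 0.16 for Retnla, -0.2 for Clec10a, 0.28 for Folr2 and -0.62 for Lyve1. Of the general macrophage genes, 7 of 15 rose and 1 fell, with a median of 0.47. With background subtracted, Mgl2 (0.75) and Stab1 (0.44) remained higher, Mrc1 (0.17, adjusted p = 0.092) and Cd163 (0.13, adjusted p = 0.355) were no longer called, and Arg1 (-0.38, adjusted p = 0.000126) and Chil3 (-0.68, adjusted p = 2.64e-06) were called lower. Arg1 was instead called higher when low genes were not filtered (0.29, adjusted p = 0.00219) or when the 14 genes over 1% were left out (0.28, adjusted p = 0.00256), so the direction for Arg1 under anti-PD1 depended on the processing.

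With the combination, 10 of 10 genes were higher than in isotype control, where 27.8% of all genes were called higher, with a median log2 fold change of 1.76 against 1.79 for the general macrophage genes. The values ran from 0.79 for Retnla, 1.06 for Cd163 and 1.24 for Chil3 and Lyve1 to 2.37 for Mrc1 and 2.4 for Mgl2. Against anti-PD1 alone 10 of 10 were also higher, where 23.1% of all genes were called higher, with a median of 1.54 and a range from 0.62 ± 0.146 for Retnla (adjusted p = 0.00339) to 2.08 ± 0.179 for Clec10a (adjusted p = 3.06e-16).

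Against anti-B7-H3 alone, each of the 10 genes was lower in the combination, where 19.1% of all genes were called lower. The median log2 fold change was -1.12 and the values ran from -3 to -0.18, against a median of 0.01 over all genes tested and -0.97 over the 15 general macrophage genes, of which 14 fell. Chil3 fell by 3 ± 0.0478 (adjusted p = 5.32e-58) and Retnla by 2.42 ± 0.1 (adjusted p = 2.37e-10). Mgl2 (-1.36 ± 0.0464), Clec10a (-1.29 ± 0.101), Arg1 (-1.21 ± 0.0425) and Mrc1 (-1.04 ± 0.0456) fell by amounts nearer to the general macrophage genes. Folr2 (-0.89 ± 0.086), Cd163 (-0.81 ± 0.0469) and Lyve1 (-0.61 ± 0.148) fell less, and Stab1 fell by 0.18 ± 0.0425 (adjusted p = 0.000291). With background subtracted these values ran from -2.98 for Chil3 to -0.16 for Stab1, and leaving out any 1 of the 12 libraries kept 10 of 10 called lower.

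**Figure D3:**
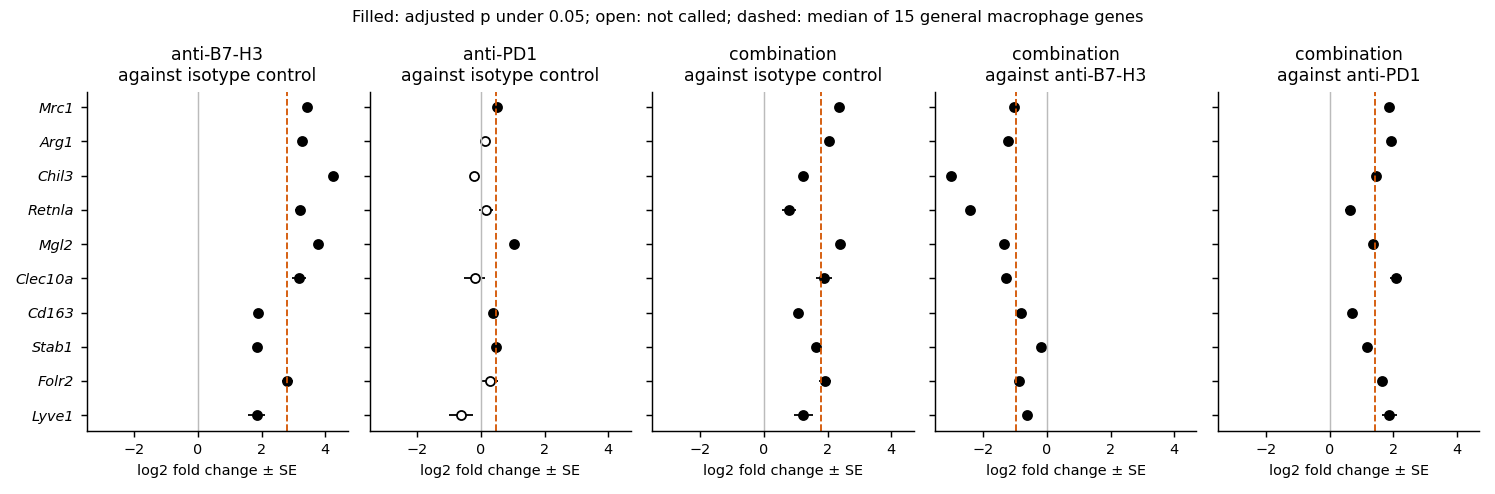
Log2 fold changes of the 10 genes in the 5 comparisons, with SE, where filled points have an adjusted p under 0.05 in edgeR's test and the dashed line is the median of the 15 general macrophage genes. Chil3 (-3) and Retnla (-2.42) lie left of the dashed line in the combination against anti-B7-H3, and Stab1 (-0.18) lies to its right.

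The 2 by 2 layout of the antibodies allowed a test of whether the log2 effect of both together differed from the sum of the single effects. For 9 of 10 genes it was lower than that sum, where 17.3% of all genes were called lower, with a median of -1.26 against -1.39 for the general macrophage genes (12 of 15 called lower). Chil3 (-2.78 ± 0.101), Retnla (-2.58 ± 0.239) and Mgl2 (-2.39 ± 0.125) departed most, and Stab1 (-0.66 ± 0.0822) least of the genes called. Lyve1 was at 0.01 ± 0.331 (adjusted p = 0.982) and took either sign when the processing changed. The 6 comparisons share groups, so they are not independent of each other.

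Because general macrophage genes moved with the members, each member was also tested against them: the same edgeR test was run with the summed reads of the 15 general macrophage genes as the library total. The sampling error of that sum is not part of the test. The sum was 877 to 1073 reads in isotype control, 3725 to 4070 in anti-PD1, 13166 to 16123 in combination and 32986 to 36092 in anti-B7-H3 libraries. On this scale, Chil3 stood at 238 ± 3.36 reads per 1000 macrophage reads (SD, n = 3) with anti-B7-H3 and at 61.6 ± 1.1 with the combination, beside 99.4 ± 9.71 in isotype control and 60.8 ± 3.26 with anti-PD1. Retnla stood at 53.1 ± 2.84 with anti-B7-H3 and at 20.6 ± 1.32 with the combination, beside 45.2 ± 19.1 in isotype control and 36.3 ± 4.99 with anti-PD1. Chil3 was thus highest in the anti-B7-H3 libraries and near one level in the anti-PD1 and combination libraries, and Retnla was lowest in the combination.

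In the combination against anti-B7-H3, 5 of 10 genes were lower per macrophage read, where 1.8% of all genes were called lower and 85.2% higher on this scale. Chil3 fell by 1.95 ± 0.0488 (adjusted p = 5.85e-49) and Retnla by 1.36 ± 0.0843 (adjusted p = 2e-15) on the log2 scale, followed by Mgl2 (-0.31), Clec10a (-0.24) and Arg1 (-0.15). Stab1 (0.87 ± 0.0467, adjusted p = 9.16e-29), Lyve1 (0.44 ± 0.151) and Cd163 (0.24 ± 0.0531) were higher, and Mrc1 (0.02 ± 0.0493) and Folr2 (0.16 ± 0.089) were not called. The calls for Chil3, Retnla, Arg1, Mgl2, Clec10a and Stab1 held with only Csf1r, Adgre1 and Mertk as reference, whereas Cd163 (0.08) and Lyve1 (0.28) lost theirs and Mrc1 turned to -0.14 (adjusted p = 0.0202). Clec10a lost its call in 5 of the 12 fits that left out 1 library, namely each anti-B7-H3 library and combination libraries 1 and 3, and with background subtracted (-0.25, adjusted p = 0.0509). Lyve1 lost its call in 2 such fits, without anti-B7-H3 library 1 or combination library 1.

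From isotype control to anti-B7-H3, 4 of 10 genes rose per macrophage read, where 0.49% of all genes were called higher and 96.7% lower: Chil3 by 1.26 ± 0.0823, Mgl2 by 0.79 ± 0.125, Mrc1 by 0.43 ± 0.0759 and Arg1 by 0.28 ± 0.0749. Stab1 (-1.14 ± 0.0789), Lyve1 (-1.12 ± 0.344) and Cd163 (-1.11 ± 0.0943) fell, and Retnla (0.22), Clec10a (0.2) and Folr2 (-0.18) were not called. With background subtracted, Arg1 lost its call (0.15, adjusted p = 0.0586) and Clec10a was called higher (2.51). Lyve1 turned to 0.51 and was not called, and Stab1 (-0.73) and Cd163 (-0.92) stayed lower. The Clec10a value rests on 23 reads in isotype control against a background of 19.6. Without isotype control library 1, Lyve1 was -0.61 and not called.

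The combination against isotype control gave 2 of 10 genes higher per macrophage read, Mgl2 (0.48 ± 0.13) and Mrc1 (0.44 ± 0.0766), where 0.393% of all genes were called higher and 94.8% lower. Retnla (-1.14 ± 0.186), Cd163 (-0.86 ± 0.0945), Chil3 (-0.68 ± 0.0971), Lyve1 (-0.68 ± 0.337) and Stab1 (-0.27 ± 0.0757) were lower. The call for Lyve1, at an adjusted p of 0.0494, was lost in 9 of the 12 fits that left out 1 library and in the fit with a replicate block (-0.68, adjusted p = 0.0618). With background subtracted Stab1 turned to 0.14 and Lyve1 to 0.93, neither of them called, and Clec10a was called higher (2.26, adjusted p = 0.000505). As Clec10a had 23 reads in isotype control against a background of 19.6, its value rests on the few reads left there. With Csf1r, Adgre1 and Mertk as reference, Stab1 (-0.11) and Lyve1 (-0.52) were not called and Arg1 (0.29, adjusted p = 0.000846) was called higher.

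With anti-PD1 against isotype control, Mgl2 was higher per macrophage read (0.55 ± 0.138), where 1.92% of all genes were called higher and 50.7% lower, and Lyve1 (-1.11 ± 0.388), Chil3 (-0.7 ± 0.106) and Arg1 (-0.35 ± 0.0844) were lower. The call for Lyve1 was lost without isotype control library 1 and with background subtracted (-0.01). In the combination against anti-PD1, Clec10a (0.64 ± 0.199), Arg1 (0.48 ± 0.0565) and Mrc1 (0.43 ± 0.0572) were higher, where 0.942% of all genes were called higher and 92.5% lower, and Retnla (-0.82 ± 0.121), Cd163 (-0.75 ± 0.0639) and Stab1 (-0.27 ± 0.0536) were lower. Chil3, at 0.02 ± 0.07, was not called in that comparison. With the reference of Csf1r, Adgre1 and Mertk, Stab1 (-0.12) was not called there and Lyve1 (0.57), Folr2 (0.33) and Chil3 (0.16, adjusted p = 0.044) were called higher.

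**Figure D4:**
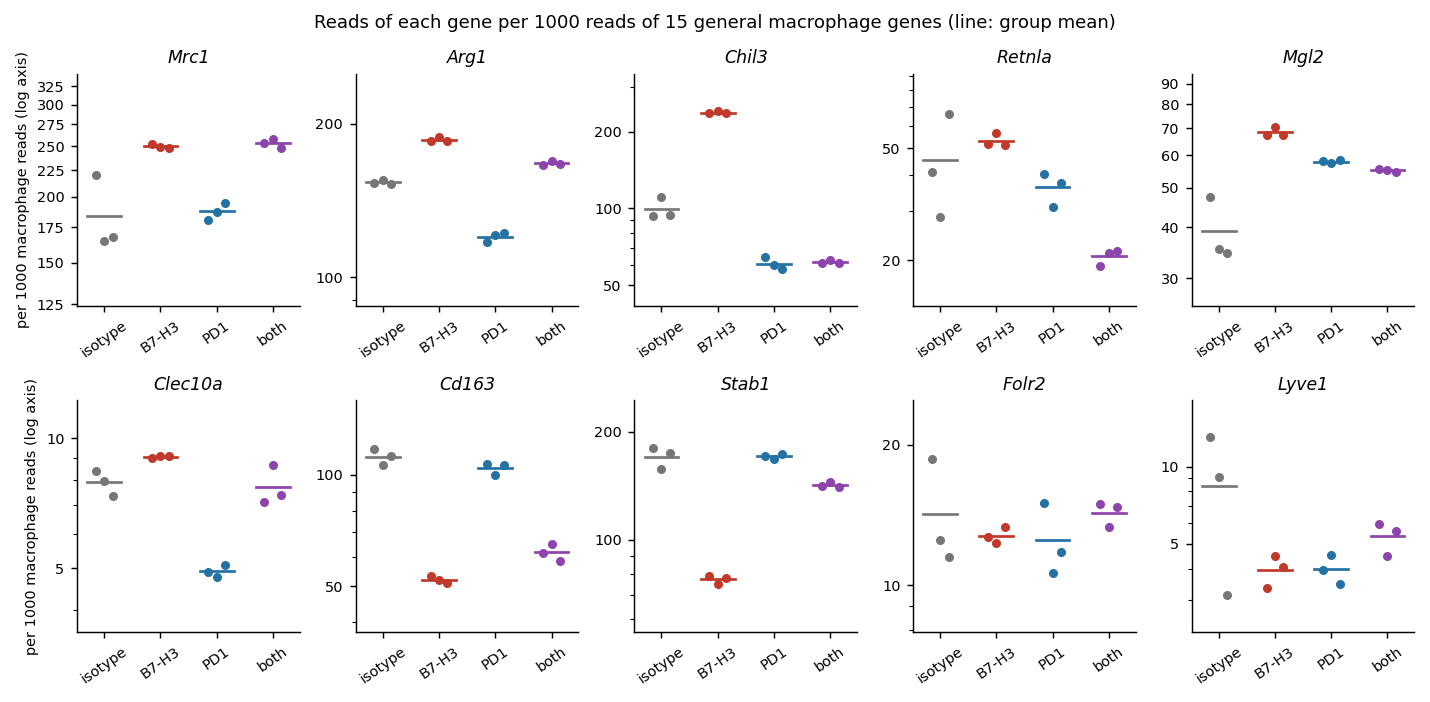
Reads of each gene per 1000 reads of the 15 general macrophage genes in the 12 libraries, on log axes that differ between panels, with group means as lines (n = 3). Chil3 is high in the anti-B7-H3 libraries (238 on average) and near 60 in both anti-PD1 and combination libraries, while Cd163 and Stab1 are lowest with anti-B7-H3 (52.1 and 77.4).

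The receptors and factors upstream of these genes were read from a list of 14 genes of IL-4 and IL-13 signalling. For this list and those below, 30.8% of all genes tested were called higher with anti-B7-H3 than in isotype control. From anti-B7-H3 to the combination, 19.1% of all genes were called lower. With anti-B7-H3, 12 of the 13 tested rose against isotype control, with a median of 1.25, led by the common gamma chain Il2rg (2.7), the receptor chain Il4ra (2.64) and the decoy receptor Il13ra2 (2.41). In isotype control Il2rg had 33 reads against a background of 24.8, Il4ra 200 against 52.3 and Il13ra2 8 against 25.8. From anti-B7-H3 to the combination, 11 of 13 fell, with a median of -0.73: Il4ra by 0.73, Il2rg by 1.07 and Il13ra2 by 2.34 on the log2 scale. The cytokines themselves, named after their values were seen, had few reads: over the 3 libraries Il4 had 27 reads with anti-B7-H3, 4 with the combination, 2 with anti-PD1 and 5 in isotype control, and Il13 had 30, 4, 6 and 3. With anti-B7-H3 these stood against a background of 0.118 and 0.111 reads, while in anti-PD1 (6.8 and 6.37) and isotype control (9.48 and 8.87) the background was higher than the reads. Stat6, also named after its value was seen, rose by 0.74 ± 0.0866 with anti-B7-H3 and was at -0.13 ± 0.0578 (adjusted p = 0.0749) in the combination against anti-B7-H3.

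Of 17 further genes of alternative activation tested, 12 rose and 3 fell with anti-B7-H3 (median 2.1), and 14 fell from anti-B7-H3 to the combination (median -1). Il1rn, the IL-1 receptor antagonist, rose by 4.22, the eosinophil attractant Ccl24 by 3.53 and the lectin Cd209e by 3.14 on the log2 scale. Cd209e then fell by 2.56 from anti-B7-H3 to the combination, close to Retnla, and Ccl24 fell by 1, close to Mrc1. The nuclear receptor gene Pparg (-1.93) and its coactivator gene Ppargc1b (-1.34) were lower with anti-B7-H3 than in isotype control, on 51 and 209 reads over the anti-B7-H3 libraries. In isotype control Pparg had 43 reads against a background of 30.0 and Ppargc1b 117 against 68.4, and the part of background in their fall was not tested. Of the transcription factors, Cebpb rose by 2.96 ± 0.19 and Irf4 by 2.49 ± 0.317 with anti-B7-H3 and fell by 1.39 ± 0.0966 and 1.33 ± 0.173 from there to the combination, both named after their values were seen. Cebpb had 31 reads in isotype control against a background of 20, and Irf4 14 against 29.

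Among 16 further resident macrophage genes tested, 13 rose and 1 fell with anti-B7-H3 (median 1.88), and 12 fell and 2 rose from there to the combination (median -0.44). The chemokine gene Ccl8 rose by 5.26, the selenium carrier Selenop by 3.16 and the platelet factor gene Pf4 by 3.09. The iron exporter gene Slc40a1 was the one called lower with anti-B7-H3 (-0.86), but its 27 reads in isotype control lay below a background of 37.8. It rose by 1.96 from anti-B7-H3 to the combination, on 67 and 228 reads. Named after their values were seen, Hmox1, which degrades haem taken up through receptors such as Cd163, rose by 1.15 ± 0.131 with anti-B7-H3 and again by 0.39 ± 0.0765 from there to the combination. Timd4, Vsig4 and Marco, receptors of serosal, liver and splenic macrophages, had 9, 2 and 13 reads over the anti-B7-H3 libraries, against 407 for Lyve1.

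Genes around arginase did not move as one. Of 11 tested arginine and polyamine genes, 5 rose and 2 fell with anti-B7-H3 (median 0.41), and 5 fell and 2 rose from there to the combination (median -0.36). Of all 13478 genes tested, 4148 rose and 4493 fell in the first comparison, and 2579 fell and 2675 rose in the second. The arginine importer gene Slc7a2 rose by 3.26, as much as Arg1, and the arginine synthesis gene Ass1 by 2.3, and they fell by 1.47 and 1.05 in the combination. The polyamine genes Sms (-1.21) and Odc1 (-0.18) were lower with anti-B7-H3, with 124 and 581 reads in isotype control against a background of 24.5 and 29.7. Nos2, the inducible nitric oxide synthase that uses the same substrate as Arg1, rose by 1.17 with anti-B7-H3 and fell by 1.28 from there to the combination. Its 73 reads in isotype control lay below a background of 77.0.

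Genes of classical activation, the interferon-driven state that is usually set against the alternative one, moved in the same comparisons. With anti-B7-H3, 10 of 15 rose (median 1.09), led by Cxcl9 (2.83), Il1b (2.58) and Ccl5 (2.39), and from there to the combination 9 of 15 fell (median -0.88). In isotype control Cxcl9 had 12 reads against a background of 8.54, Il1b 17 against 18.1 and Ccl5 9 against 6.18. The IL-10 list, whose cytokine also induces several of the 10 genes, gave 7 of 7 higher with anti-B7-H3 (median 0.85), with Il10ra at 2.74 and Il10rb at 1.64, and 6 of 7 lower from there to the combination (median -0.87). Il10ra had 31 reads in isotype control against a background of 38.5, and Il10rb 65 against 23.4. The cytokine gene Il10 itself was listed but did not pass the low-count filter, so it is not among the 7. It had 10 reads over the anti-B7-H3 libraries (background 0.15) and 6 over those of the combination (1.14). In anti-PD1 it had 25 reads (8.64) and in isotype control 23 (12). Neither pattern was tested against that of the 10 genes.

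Other cell types can carry some of these genes: eosinophils and neutrophils can hold Chil3-family or resistin-like transcripts, dendritic cells Mgl2 and Clec10a, and lymphatic vessels Lyve1 and Stab1. The 6 eosinophil genes summed to 66 to 68.5 CPM with anti-B7-H3, 23.5 to 25.6 with the combination, 13.8 to 18.2 with anti-PD1 and 21.6 to 26.7 CPM in isotype control, with 5 of 5 tested lower in the combination than with anti-B7-H3 (median -1.83). Their 201 reads in isotype control stood against a background of 161 and their 367 in anti-PD1 against 115, but their 2546 with anti-B7-H3 against 2.01 and their 809 with the combination against 15.3. Ccr3 (-1.91) and Siglecf (-1.83) were among them. The granule gene Epx, a defining eosinophil marker named after its value was seen, had 6 reads over the anti-B7-H3 and 1 over the combination libraries. Ear2 gave 38.3 of the mean 67 CPM with anti-B7-H3. Against isotype control, 3 of 5 tested rose with anti-B7-H3, while Prg2 fell (-1.04, adjusted p = 0.00732 in edgeR's test). Prg2 had 37 reads in isotype control against a background of 15.1. The part of eosinophils in the fall of Chil3 and Retnla was not tested.

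The 10 neutrophil genes summed to 32.2 to 35.2 CPM in anti-B7-H3 and 12.2 to 13.7 CPM in combination libraries, with 26.7 to 30.6 in isotype control and 12.8 to 14.8 in anti-PD1 libraries. In isotype control 239 reads stood against a background of 203 and in anti-PD1 323 against 146, whereas the 1287 with anti-B7-H3 and 434 with the combination stood against 2.53 and 19.3. Most of the change lay in Retnlg, which rose by 3.61 with anti-B7-H3, fell by 1.54 from there to the combination and is 84.2% identical to Retnla in coding sequence, with 3.1% of 31-base words in common. Retnlg had 14 reads in isotype control against a background of 7.93. Of the 3 neutrophil genes tested, 1 rose and 1 fell with anti-B7-H3. The one that fell was Csf3r (-0.6, adjusted p = 0.000994 in edgeR's test), with 137 reads in isotype control against a background of 56.3. Csf3r fell by a further 1.44 from anti-B7-H3 to the combination, from a mean of 10.7 to 3.89 CPM. Ngp was at 0 reads in anti-B7-H3 and combination libraries. Monocyte genes (6 listed) summed to 187 to 201 CPM with anti-B7-H3, 105 to 110 with the combination, 76.3 to 81 with anti-PD1 and 70.6 to 82.2 CPM in isotype control, and 5 of 5 tested fell from anti-B7-H3 to the combination (median -0.98). Their 643 reads in isotype control stood against a background of 260. Vcan, named after its value was seen, gave 152 of the mean 196 CPM with anti-B7-H3. The 10 dendritic cell genes summed to 185 to 197 CPM with anti-B7-H3, 94.9 to 102 with the combination, 55.4 to 61.7 with anti-PD1 and 56.3 to 57.9 CPM in isotype control. In isotype control their 480 reads stood against a background of 303. Itgax (126) and Irf8 (30.1) gave most of the mean 189 CPM with anti-B7-H3. Against isotype control, 6 of 9 tested rose with anti-B7-H3, while Clec9a (-2.66) and Flt3 (-0.77) fell. Clec9a had 45 reads in isotype control against a background of 15.7, and Flt3 46 against 67.3. From anti-B7-H3 to the combination, 6 of 9 tested fell (median -0.92). The part of neutrophils, monocytes and dendritic cells in the members' changes was not tested.

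The 6 lymphatic genes summed to 8.16 to 9.51 CPM with anti-B7-H3, 5.33 to 6.57 with the combination, 11.6 to 13.1 with anti-PD1 and 38.6 to 41.6 CPM in isotype control, where their 335 reads lay below a background of 476. Of these, the membrane protein gene Pdpn, which other stromal cells also use, had 214 reads with anti-B7-H3, rose by 1.65 with it and fell by 1.0 from there to the combination. Flt4 and Reln had 70 and 53 reads with anti-B7-H3. Prox1, the defining transcription factor of lymphatic endothelium, had 1 read over the anti-B7-H3 and 4 over the combination libraries, and Ccl21a and Mmrn1 were at 0 reads with anti-B7-H3. The part of lymphatic vessels in the changes of Lyve1 and Stab1 was not tested. Blood endothelial genes summed to 110 to 115 CPM with anti-B7-H3, 85.1 to 92.8 with the combination and 95.8 to 104 CPM in isotype control, where their 829 reads stood against a background of 698, compared with 4251 against 8.73 for anti-B7-H3. Stab2, the close relative of Stab1, had 12 reads over the anti-B7-H3 libraries against 8004 for Stab1.

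**Figure D5:**
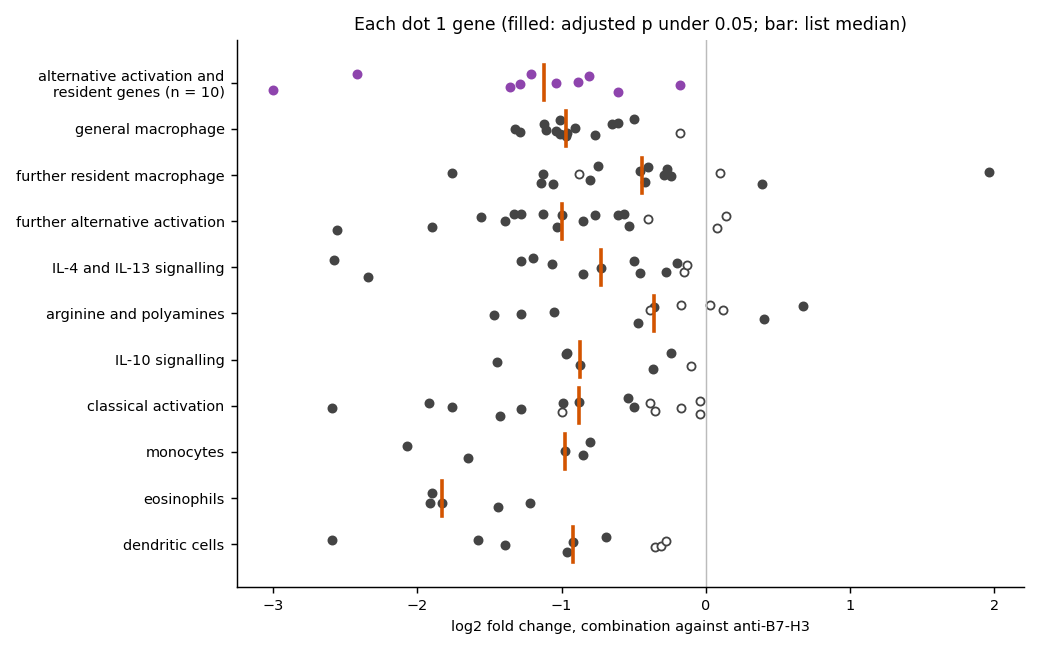
Log2 fold change of each tested gene in the combination against anti-B7-H3, by list, with filled dots for an adjusted p under 0.05 and bars for list medians. The 10 genes have a median of -1.12, general macrophage genes -0.97 and eosinophil genes -1.83, and Slc40a1 (1.96) stands alone at the right among resident macrophage genes.

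Genes with the most similar profile over the 12 libraries were sought for each member among 5500 genes with a mean of at least 10 CPM, by the root mean square distance between centred log2 CPM values. Cd163 was nearest to Postn (0.08) and Pld3 (0.1), Mrc1 to Mmp12 (0.1) and Ccl24 (0.12), Arg1 to Srgn (0.1) and Lyz2 (0.11), and Mgl2 to the MHC class II genes H2-Aa and H2-Eb1 (0.11 each). Stab1 was nearest to Hexa (0.13) and Serinc3 (0.14), Folr2 to Mpeg1 (0.17) and Ptprc (0.18), and Clec10a to Lyz2 (0.17) and Srgn (0.18). Chil3, Retnla and Lyve1 had no comparably close gene: the nearest to Chil3 were Car4 (0.5) and Rnase2a (0.55), to Retnla Car4 (0.33) and Cilp (0.39), and to Lyve1 Mt2 (0.31) and Hfe (0.33). These distances are descriptions over libraries that share groups and depth.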

How the data were processed

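Whole-tumour RNA of 12 libraries was analysed, 3 in each of 4 groups. The authors deposited 1 table per library with an estimated count of reads per transcript, per the file headers, and these estimated counts are not scaled. GRCm38 and FastQC 0.11.8 are named in the submitters' processing notes, and the program that assigned reads and its strand setting are not given in the sources used here. Transcript names without version were matched to GENCODE M21 (57473 of 58083), summed to 22195 genes and rounded. Since 87.3% of deposited lengths are multiples of 3, they are coding lengths. Totals were 3593110 to 21298142 reads per library.

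Groups were compared in R 4.3.3 with edgeR 4.0.16 (TMM, its filter on low counts, robust quasi-likelihood test, all libraries in 1 fit, Benjamini-Hochberg adjustment over 13478 genes, calls at adjusted p under 0.05); SE is the log2 fold change divided by the square root of F. DESeq2 1.42.0 and other settings served as alternatives. All 10 genes are named in each comparison, and of other lists up to 3 called genes with the largest rise and up to 2 with the largest fall under anti-B7-H3. The members and lists were chosen with earlier results of these data known. SE and SD include the spread between libraries, which may be technical, and the bound of up to 3 reads for genes at 0 reads covers counting error only.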

Additional observations from a re-analysis of the deposited data

Results flagged for a closer look

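For 9 of the 10 genes the effect of anti-B7-H3 differed between tumours without and with anti-PD1, by the interaction term of edgeR's fit over all libraries (17.3% of all genes were called lower on that term). The log2 interaction was -2.78 for Chil3, -2.58 for Retnla, -2.39 for Mgl2, -1.53 for Mrc1, -1.34 for Arg1, -1.19 for Cd163, -1.17 for Folr2, -1.09 for Clec10a and -0.66 for Stab1. Each value means that adding both antibodies raised the gene by less than the sum of the single log2 effects. The isotype control group, in which background took 4.89% to 85.3% of the reads of these 9 genes, enters the term. With background subtracted the values for these 9 ran from -2.58 for Clec10a to -0.6 for Stab1 and all 9 were called. The Clec10a value rests on 23 isotype control reads against a background of 19.6.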

How the results depend on the processing

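Of 1310 values of the 10 genes under other settings or without 1 library, 1278 kept their direction and side of the threshold, 4 lost and 12 gained a call and 16 changed sign; relative to macrophage genes it was 731, 28, 14 and 27 of 800. In anti-B7-H3 against isotype control, the combination against anti-B7-H3 and the combination against anti-PD1, 10 of 10 genes kept their call under each setting run. For anti-PD1 against isotype control, subtracting background left 2 genes higher (4 before) and 2 lower (0 before), with Arg1 at -0.38, Retnla at -0.32, Clec10a at 1.3 and Lyve1 at 0.07; with only genes at least 5 times background 1 was lower (Chil3, -0.33), and without 1 library 0 to 1 (1 without isotype control library 1 or 3 or anti-PD1 library 1). Clec10a was 0.01 with an effective-length offset, and Retnla -0.05 to 0.53 without 1 library. The interaction for Lyve1 was -0.16 without the filter, -0.1 without the genes over 1%, -0.68 with background subtracted and -0.45 to 0.4 without 1 library. The cause of these changes was not tested.

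Relative to macrophage genes, the reference of Csf1r, Adgre1 and Mertk gave 3 genes lower for the combination against isotype control (5 before), 1 higher against anti-B7-H3 (3 before) and 6 higher against anti-PD1 (3 before), with Folr2 at 0.15 for anti-B7-H3 and for the combination against isotype control, Clec10a at 0.12 in the latter, Mrc1 at -0.14 against anti-B7-H3 and Mgl2 at 0.08 against anti-PD1. Without C1qa, C1qb and C1qc, Clec10a was 0.04 and Folr2 0.07 for the combination against isotype control. Background subtraction gave Folr2 0.31 and Lyve1 0.51 for anti-B7-H3; 2 genes higher (1 before), Clec10a 1.22, Cd163 0.04 and Folr2 0.19 for anti-PD1; and 3 genes lower (5 before), Clec10a 2.26, Stab1 0.14, Folr2 0.47 and Lyve1 0.93 for the combination, each against isotype control. Leaving out 1 library, against isotype control, Folr2 ran from -0.31 to 0.09 for anti-B7-H3, from -0.37 to 0.06 for anti-PD1 and from -0.15 to 0.25 for the combination, Mrc1 from -0.06 to 0.17 and Retnla from -0.54 to 0.04 for anti-PD1, and Clec10a from -0.13 to 0.01 for the combination; Chil3 ran from -0.02 to 0.06 in the combination against anti-PD1.

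Same-numbered libraries had correlations of deviations of -0.1 to 0.19 (1 of 18 pairs over 0.1), within the -0.33 to 0.3 of differently numbered libraries. Libraries of anti-B7-H3 and of the combination differed within their group by little more than counting noise. A shared effect of a pair could therefore hardly show, and whether the numbers pair the samples stays undecided. With the replicate block, 10, 4, 10, 10 and 10 genes were called in the 5 comparisons and 9 in the interaction, as without it, and the one lost call was Lyve1 relative to macrophage genes in the combination against isotype control (-0.68, adjusted p = 0.0618).

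Counts over all genes moved with the filter and background. Against isotype control, without the filter 10805 genes were lower with anti-B7-H3 (4493 before), 3719 higher and 6302 lower with anti-PD1 (2353 and 2811 before) and 5732 higher and 10133 lower with the combination (3745 and 3982 before). Without the filter, 6983 were lower in the combination than with anti-PD1 (3151 before) and 4031 higher in the interaction (2571 before). With background subtracted, 2829, 1202 and 2130 genes were lower with anti-B7-H3, anti-PD1 and the combination than in isotype control, and 1628 higher in the interaction. Without the genes over 1%, 3625 were higher and 4383 lower with anti-PD1, and 4785 lower in the combination than with anti-PD1. With only genes at least 5 times background, 1451 were higher and 1417 lower with anti-PD1 and 2557 lower with the combination, against isotype control. The median of all genes was 0.1 at most under another scaling, for the combination against anti-B7-H3 without the genes over 1%.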
